A study of Mus musculus with 13 samples.

Results

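The 10 heat-shock chaperone genes examined here were Hspa1a, Hspa1b, Hsph1, Hsp90aa1, Dnaja1, Dnajb1, Hspa8, Hspd1, Hspe1 and Hsf1, picked by name from the 54532 gene identifiers of each library. They were picked with the measured values of cNK cells by label in view, so their change in that contrast is given as a description without a test. RNA-seq compared sorted natural killer (NK) cells of mice of strain C57BL/6J aged 8 to 10 weeks, in 4 groups. They were LrNK labelled CD8KO (3 libraries) and LrNK labelled wild type (WT, 4 libraries), and cNK with the CD8KO label (3 libraries) and with the WT label (3 libraries). LrNK, the liver-resident NK cells, came from liver lymphocytes, and cNK, the conventional NK cells, from splenocytes per the labels. Cell type and organ therefore cannot be told apart. The title of the series concerns the part that CD8 T cells play in maturation of LrNK cells, and CD8KO names mice whose genotype is given as lacking CD8.

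Heat-shock proteins are chaperones that hold, fold or refold other proteins. HSP70 proteins bind exposed stretches of unfolded clients under the guidance of J-domain co-chaperones, nucleotide exchange factors such as HSP110 release the client, and HSP90 completes the folding of kinases and receptors. When unfolded protein accumulates, the transcription factor HSF1 is freed from chaperones, forms trimers and binds arrays of a short repeat, nGAAn, in the promoters of heat-inducible genes. In lymphocytes the inducible HSP70 genes are known to respond to heat and other proteotoxic stress, whereas Hspa8 is expressed constitutively.

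The promoters are shown because the members that moved most are a near-identical gene pair and because this repeat is the feature the family is known for. RefSeq promoter windows (GRCm38.p6, 250 bases before to 50 bases after a start) were matched by symbol for 7 of the 10 genes, in 12 windows. Hspa1a lies on the minus strand at chr17:34972107-34972406 and Hspa1b at chr17:34959189-34959488, also on the minus strand. The Hsph1 window shown is chr5:149636266-149636565, minus strand, and the Hspd1 and Hspe1 windows are chr1:55087883-55088182, minus strand, and chr1:55087898-55088197, plus strand. Each sequence reads 5′ to 3′, and capitals mark runs of the repeat (GAANNTTC or TTCNNGAA, 2 units, and 3-unit forms, in which either is extended by NN and 1 more alternating GAA or TTC).
Hspa1a: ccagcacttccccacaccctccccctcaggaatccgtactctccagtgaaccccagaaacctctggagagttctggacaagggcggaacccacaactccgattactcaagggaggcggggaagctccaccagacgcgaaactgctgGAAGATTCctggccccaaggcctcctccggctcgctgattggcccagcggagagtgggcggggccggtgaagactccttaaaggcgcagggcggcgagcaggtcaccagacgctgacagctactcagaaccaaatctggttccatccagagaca
Hspa1b: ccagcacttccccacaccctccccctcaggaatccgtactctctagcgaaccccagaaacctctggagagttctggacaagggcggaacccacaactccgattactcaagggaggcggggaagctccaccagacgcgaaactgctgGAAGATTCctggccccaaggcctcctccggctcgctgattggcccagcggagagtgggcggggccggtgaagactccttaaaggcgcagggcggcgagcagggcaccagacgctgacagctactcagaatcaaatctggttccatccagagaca
Hsph1: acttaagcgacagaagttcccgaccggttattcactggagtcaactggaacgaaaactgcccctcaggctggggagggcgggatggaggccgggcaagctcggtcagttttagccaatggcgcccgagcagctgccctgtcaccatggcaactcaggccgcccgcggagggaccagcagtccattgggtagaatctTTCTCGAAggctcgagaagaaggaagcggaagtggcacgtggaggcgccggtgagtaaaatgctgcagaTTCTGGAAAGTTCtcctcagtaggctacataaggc
Hspd1: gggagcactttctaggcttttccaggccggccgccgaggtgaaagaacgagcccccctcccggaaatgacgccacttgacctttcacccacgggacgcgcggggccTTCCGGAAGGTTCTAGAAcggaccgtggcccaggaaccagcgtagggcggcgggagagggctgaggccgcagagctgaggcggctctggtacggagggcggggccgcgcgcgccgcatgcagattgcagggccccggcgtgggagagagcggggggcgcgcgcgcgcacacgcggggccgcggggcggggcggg
Hspe1: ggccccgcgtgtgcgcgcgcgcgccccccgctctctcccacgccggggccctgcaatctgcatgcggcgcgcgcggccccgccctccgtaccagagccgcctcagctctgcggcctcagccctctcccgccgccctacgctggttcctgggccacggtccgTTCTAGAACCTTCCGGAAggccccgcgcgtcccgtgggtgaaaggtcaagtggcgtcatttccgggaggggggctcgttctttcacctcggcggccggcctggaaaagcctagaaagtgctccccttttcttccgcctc

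The Hspa1a and Hspa1b windows were equal at 296 of 300 bases and carried the same 2-unit run at −104 to −97 from the start. Hspd1 and Hspe1, a divergent gene pair, have windows that overlap by 285 bases and hold 1 shared run of 18 bases, read as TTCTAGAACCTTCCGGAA on the Hspe1 strand. Both strands were searched, and the 2-unit forms, which are their own reverse complements, were allowed to overlap within the 3-unit forms. At least 1 window had 2 units for 6 of the 7 genes and 3 units for 3 of them (Hsph1, Hspd1 and Hspe1), while Dnajb1 had neither in its windows. Over all 27025 genes with windows of the same length, 17% had at least 1 window with 2 units and 0.662% at least 1 with 3 units. A match describes letters in a window and is no measure of binding.

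Each group was first checked against its label. Cd8a, the gene the CD8KO label names, was higher and not lower under that label, at 41.6 to 45.1 CPM (counts per 1000000 counts of a library or sample) in LrNK libraries labelled CD8KO against 18.5 to 22.4 in LrNK WT, and at 85.9 to 109 in cNK libraries labelled CD8KO against 0.561 to 0.578 in cNK WT. The label is therefore used as a name only, and every direction by label depends on it. Library totals were 35910292 to 47655853 counts in LrNK labelled CD8KO, 30578631 to 42986589 in LrNK WT, 48600875 to 59670243 in cNK labelled CD8KO and 53519657 to 72716020 in cNK WT. Libraries 2 and 3 of LrNK labelled CD8KO were far closer to each other than any other LrNK pair, as were libraries 2 and 4 of LrNK WT, although both pairs differed by more than counting error, and each pair was counted as 1 sample (n = 2, 3, 3 and 3 in the order above). LrNK samples stood apart from each other, with 13917 to 15797 genes detected in 3 libraries and 19896 to 22921 in the other LrNK libraries, and the biological coefficient of variation was 98.2% in LrNK and 9.6% in cNK. Xist, expressed from the inactive X chromosome of females, was at 94.9 to 136 CPM in LrNK libraries labelled CD8KO and no higher than 1.9 in LrNK WT, so that sex and label cannot be told apart in LrNK. The cNK samples labelled CD8KO had 0.247, 265 and 815 CPM and cNK WT 0.299 CPM at most, so sex and label were partly joined in cNK. Markers went with the cell-type labels: Itga1 was at 136 to 369 CPM in LrNK libraries and 10 to 19.3 in cNK, and Eomes at 0.494 to 10.3 in LrNK and 640 to 703 in cNK. Nothing in the labels says that samples came from separate animals, so p-values measure only the spread between these samples.

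Hspa1a (ENSMUSG00000091971, chromosome 17, 34969190 to 34972156, GRCm38) and Hspa1b (ENSMUSG00000090877, chromosome 17, 34956436 to 34959238) encode the inducible cytosolic HSP70 and showed the widest range of the 10 genes. Hspa1b was at 262 and 105 CPM in LrNK labelled CD8KO, 1242, 527 and 782 in LrNK WT, 9.84, 2.95 and 2.83 in cNK labelled CD8KO, and 94.0, 74.9 and 28.1 in cNK WT. Hspa1a was at 104 and 46.1 CPM in LrNK labelled CD8KO, 226, 135 and 290.5 in LrNK WT, 1.19, 0.285 and 0.315 in cNK labelled CD8KO, and 11.7, 8.84 and 3.06 in cNK WT. For both copies the 4 groups did not overlap and stood in 1 order. LrNK WT was highest, LrNK labelled CD8KO next, then cNK WT, with cNK labelled CD8KO lowest. In bulk samples, fewer cells of a type and less RNA per cell cannot be told apart. In cNK the lowest counts behind these values were 17 for Hspa1a and 162 for Hspa1b in a library.

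**Figure D1:**
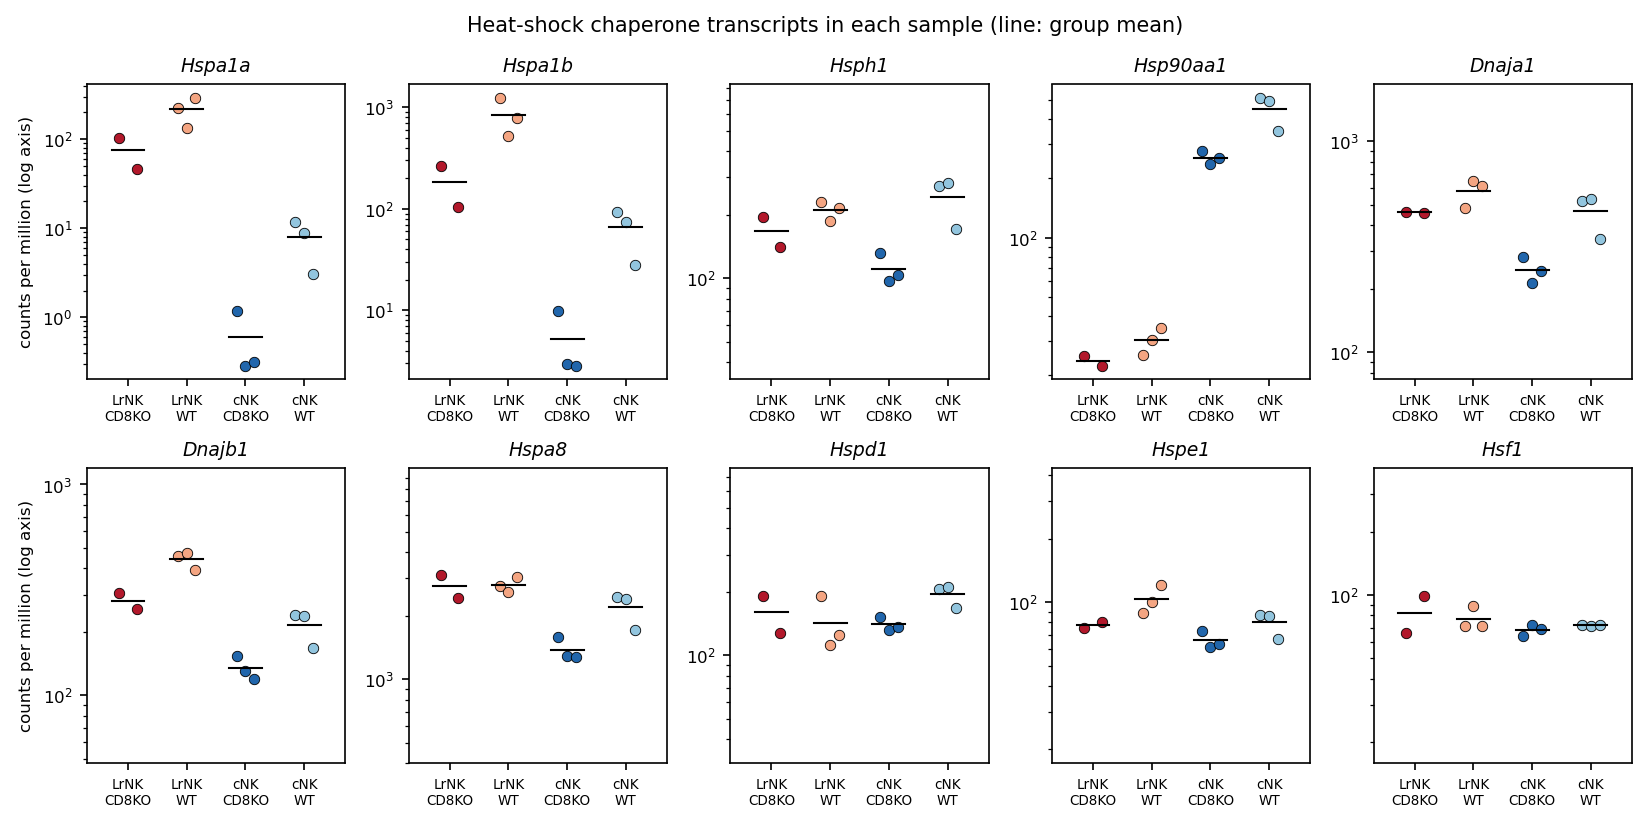
CPM (log axes, a separate range for each gene) of the 10 chaperone genes in every sample, with a point per sample and a line at the group mean, for LrNK labelled CD8KO, LrNK WT, cNK labelled CD8KO and cNK WT. Hspa1a and Hspa1b separate all 4 groups, Hsp90aa1 is far lower in both LrNK groups, and Hsf1 lies between 64.2 and 98.6 CPM in all 11 samples.

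Hspa1a and Hspa1b may share reads, because 58.8% of the 50-base windows of the Hspa1a transcript also occur in Hspa1b and 62.3% the other way. Hspa1a made up 28.5% and 30.5% of the counts of both copies in LrNK labelled CD8KO, 15.4%, 20.4% and 27.1% in LrNK WT, 10.8%, 8.81% and 10% in cNK labelled CD8KO and 11.1%, 10.6% and 9.82% in cNK WT. The share was higher in every LrNK sample than in any cNK sample. How the counting assigned reads that fit both copies is not given in the sources used here, so values of the single copies are uncertain. Summed, the pair was at 366 and 151 CPM in LrNK labelled CD8KO, 1470, 662 and 1070 in LrNK WT, 11, 3.23 and 3.15 in cNK labelled CD8KO and 106, 83.8 and 31.2 in cNK WT, in the same order of groups.

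**Figure D2:**
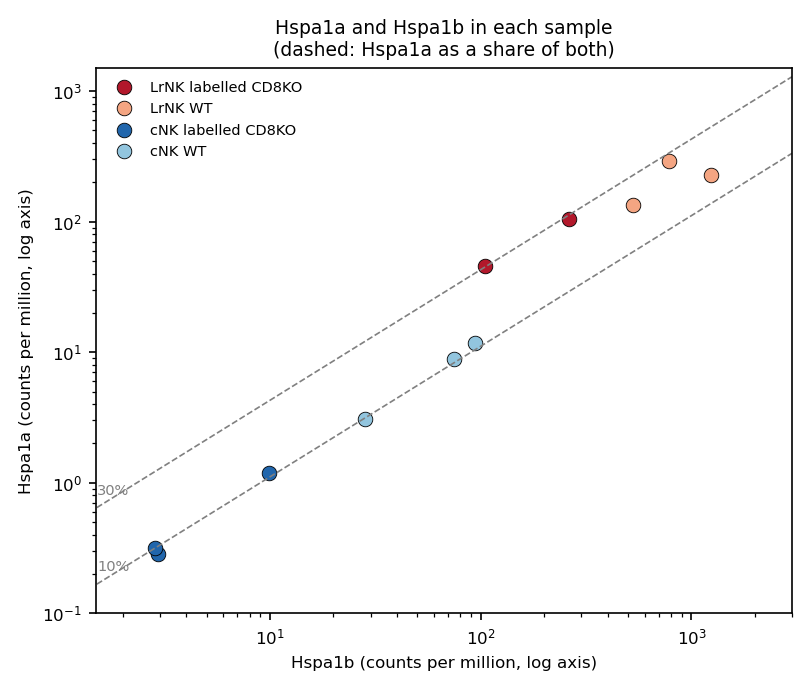
Hspa1a against Hspa1b, both in CPM on log axes, with a point per sample coloured by group and dashed lines where Hspa1a makes up 10% and 30% of both. The cNK samples lie along the 10% line across their whole range, and the LrNK samples lie above it, up to 30.5%.

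Hsph1 encodes HSP105, an HSP110 protein that releases clients from HSP70. Its level was 194 and 141 CPM in LrNK labelled CD8KO, 230, 186 and 214 in LrNK WT, 132, 97.1 and 103 in cNK labelled CD8KO, and 273, 282 and 170 in cNK WT. The cNK samples labelled CD8KO lay below all others, and the other 3 groups overlapped with their neighbours in the order of means. Hspa8, the constitutive HSP70 (HSC70), was at 3110 and 2424 CPM in LrNK labelled CD8KO, 2748, 2581 and 3034 in LrNK WT, 1579, 1283 and 1277 in cNK labelled CD8KO, and 2445, 2407 and 1705 in cNK WT. The cNK samples labelled CD8KO were again the lowest. Per length of merged exons, Hspa8 had the highest level of the 10 genes in every group, with means, in counts per kilobase scaled to a sum of 1000000, of 2008 and 1888 in LrNK labelled CD8KO and LrNK WT and 1091 and 1735 in cNK labelled CD8KO and cNK WT.

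The J-domain proteins Dnajb1 (HSP40) and Dnaja1 deliver clients to HSP70. Dnajb1 was at 306 and 257 CPM in LrNK labelled CD8KO, 458, 475 and 395 in LrNK WT, 154, 130 and 119 in cNK labelled CD8KO, and 239, 237 and 168 in cNK WT. As with the Hspa1 pair, the 4 groups did not overlap and kept the same order. Dnaja1 was at 461 and 457 CPM in LrNK labelled CD8KO, 483, 648 and 615 in LrNK WT, 283, 213 and 241 in cNK labelled CD8KO, and 518, 532 and 342 in cNK WT, so that only cNK labelled CD8KO stood clear of the rest. On the opposite strand, Smu1 overlaps Dnaja1 by 608 bases, and the strand setting of the counting is not given in the sources used here.

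Hsp90aa1 (ENSMUSG00000021270, chromosome 12, 110690605 to 110702728), the inducible cytosolic HSP90, ran the other way between the cell types. Its level was 25.1 and 22.3 CPM in LrNK labelled CD8KO, 25.5, 30.3 and 34.6 in LrNK WT, 276, 236 and 254 in cNK labelled CD8KO, and 512, 493 and 349 in cNK WT. The groups did not overlap, and both LrNK groups lay below both cNK groups. The mitochondrial chaperonin HSP60 (Hspd1) and its partner HSP10 (Hspe1) share a promoter region and overlap by 112 bases on opposite strands. Hspd1 ranged from 112 to 212 CPM over all 11 samples and Hspe1 from 61.3 to 121. For Hspd1 every pair of neighbouring groups in the order of means overlapped, and for Hspe1 LrNK WT lay above the other groups and cNK labelled CD8KO shared its range with cNK WT. Hsf1, the gene of the heat-shock transcription factor, ranged from 64.2 to 98.6 CPM, and every pair of neighbouring groups overlapped. Counts of Hsf1 measure its transcript and not its activation, which takes place on the protein.

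How did the genes differ between cNK cells labelled CD8KO and cNK WT, the contrast that chose them? All samples of cNK labelled CD8KO lay below all of cNK WT for 8 of the 10, where 8.35% of all 16619 genes lay wholly below and 9.68% wholly above. This count only restates the choice. The log2 change was −3.79 ± 0.50 (standard error) for Hspa1a and −3.71 ± 0.43 for Hspa1b, −1.14 ± 0.15 for Hsph1, −0.93 ± 0.14 for Dnaja1 and −0.83 ± 0.11 for Hsp90aa1. DESeq2 gave wider standard errors, 0.84 for Hspa1a, 0.78 for Hspa1b, 0.27 for Hsph1, 0.23 for Dnaja1 and 0.185 for Hsp90aa1. Its errors were also wider for Dnajb1 and Hspa8 (0.20 each) but not for Hspd1 (0.083). Smaller differences were those of Dnajb1 (−0.68 ± 0.12), Hspa8 (−0.67 ± 0.11) and Hspd1 (−0.48 ± 0.08), and the samples overlapped for Hspe1 (−0.29 ± 0.10) and Hsf1 (−0.07 ± 0.05). Within the groups the samples were graded: cNK labelled CD8KO sample 1 was the highest of its group in 9 of the 10 genes, and cNK WT sample 3 the lowest of its group in 9. Sample 1 is also the sample labelled CD8KO with Xist under 1 CPM, and against cNK WT it alone gave log2 changes of −2.73 for Hspa1a, −2.74 for Hspa1b and −0.88 for Hsph1. Markers of other lymphocytes moved with the label in cNK. T-cell genes were positive for all 11 tested (median log2 change 0.27, with Cd3d and Cd3g called higher), and their sum was 564 to 590 CPM in cNK labelled CD8KO and 510 to 559 in cNK WT. B-cell genes were positive for 11 of 12 (median 0.57, with Ighm called higher), with sums of 232 to 246 CPM in cNK labelled CD8KO and 181 to 198 in cNK WT. Among NK-cell subset markers Itga1 was called higher, and Klra4 and Klra8 lower. The part of sex or of other cells in these values was not tested.

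**Figure D3:**
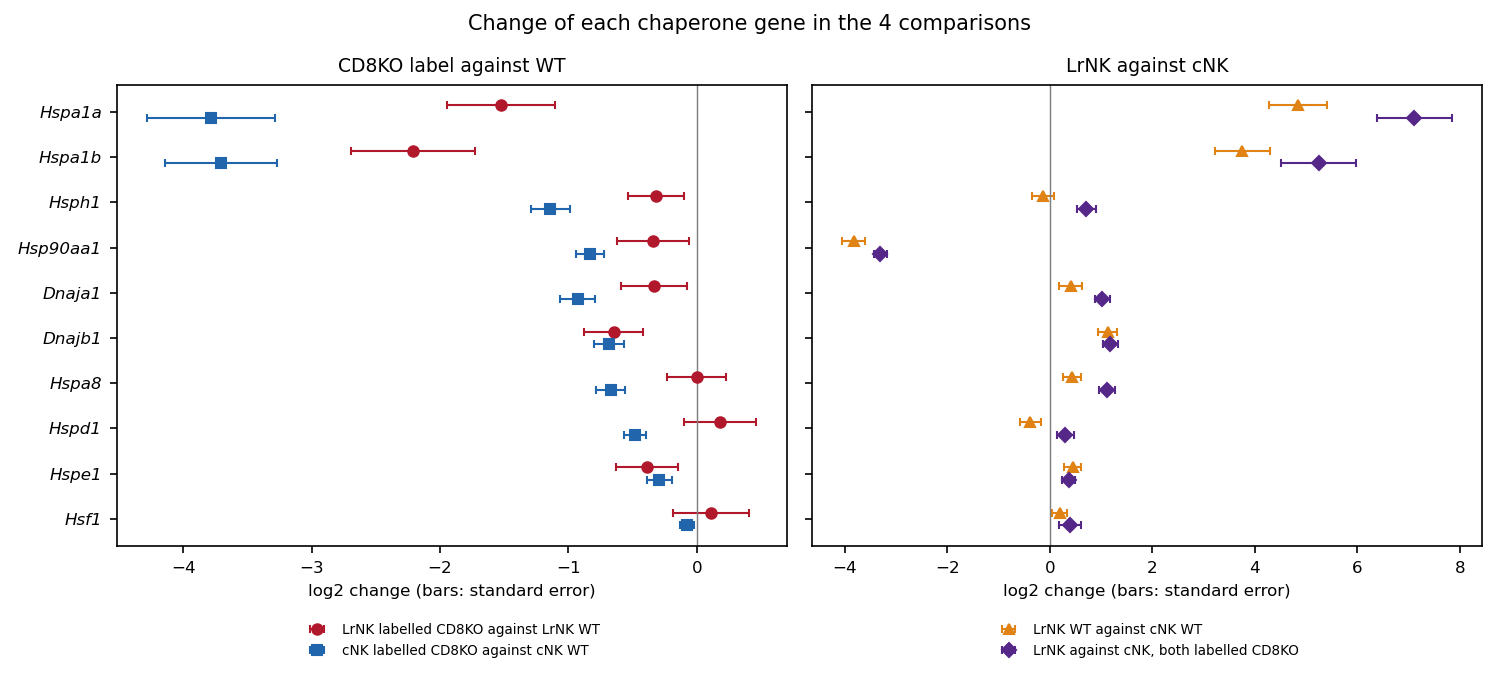
Log2 change of each chaperone gene with its standard error as a bar, for CD8KO label against WT in LrNK and in cNK (left) and for LrNK against cNK within each label (right). In cNK by label all 10 estimates lie below 0, from −3.79 to −0.07, and between cell types Hspa1a and Hspa1b lie far to the right and Hsp90aa1 far to the left.

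In LrNK cells none of the 10 genes passed by label, and sex cannot be told apart from the label in these values. The genes were chosen with earlier results of these data known, so their values in LrNK are no independent result either. On simulated counts this fit recovered few changes in LrNK by label, so a missing call does not show equal levels. The log2 change between LrNK labelled CD8KO and LrNK WT was −2.21 ± 0.48 for Hspa1b, −1.52 ± 0.42 for Hspa1a and −0.65 ± 0.23 for Dnajb1, and edgeR's adjusted p was 1.00 for every one of the 10 genes. The share of all 16504 genes called was 0% in either direction. By the same edgeR test 615 of the 16504 genes had an unadjusted p under 0.05, no more than the share of 0.05 that arises without any change. Among them were Hspa1b (0.00269), Hspa1a (0.00883) and Dnajb1 (0.0266). Samples of LrNK labelled CD8KO lay wholly below LrNK WT for 6 of the 10 genes (Hspa1a, Hspa1b, Hsp90aa1, Dnaja1, Dnajb1 and Hspe1) and wholly above for 0, where 8.47% of all genes lay wholly below and 9.84% wholly above. The other estimates were −0.39 for Hspe1, −0.34 for Hsp90aa1, −0.34 for Dnaja1, −0.32 for Hsph1, −0.0023 for Hspa8, 0.11 for Hsf1 and 0.18 for Hspd1. The median over the 10 was −0.34, against 0.02 over all genes.

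The Hspa1b estimate in LrNK was called under some settings and not under others, also within edgeR. By edgeR it was called without a filter (adjusted p = 1.71e-07) and with a replicate block (adjusted p = 0.0253), and by DESeq2 (adjusted p = 0.000571). With RLE factors, all 4 groups together, separate libraries or voom it was not called. Over the alternatives, including the summed Hspa1 pair, the log2 change ran from −2.91 to −1.74. DESeq2 called 59 genes in all and voom with sample quality weights 0 (954 at an unadjusted p under 0.05). Among samples with few detected genes the log2 changes of Hspa1b and Hspa1a were −1.92 and −1.29, and among those with many, 1 sample a group and so without a test, −2.31 and −1.53. Some marker genes of other cells had higher estimates in LrNK labelled CD8KO without passing. All 12 B-cell genes and all 14 tested neutrophil and monocyte genes were positive (median log2 change 3.60 and 1.48, 0 called in each). T-cell genes were mixed, 8 positive and 4 negative (median 0.36, 0 called). Their sum was lower, at 862 to 1110 CPM in LrNK labelled CD8KO against 1460 to 1840 in LrNK WT. Conventional NK genes were positive for 9 of 12 (median 1.02, 0 called). Liver-resident NK genes were negative for 9 of 11 (median −0.45, 0 called). NK-cell genes were all 11 negative (median −0.65, 0 called), with summed levels of 7910 to 9690 CPM in LrNK labelled CD8KO and 13800 to 16600 in LrNK WT. The part of these cells in the chaperone values was not tested. Whether the label's effect differs between LrNK and cNK was not tested either, since 1 of those contrasts chose the genes.

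Between cell types, LrNK held more inducible HSP70 RNA and less Hsp90aa1 RNA than cNK under either label. These comparisons share the cNK samples with the contrast that chose the genes, so the choice bears on their direction. Low values in cNK labelled CD8KO favour calls of higher in LrNK under that label, and high values in cNK WT favour the reverse in WT. In WT, Hspa1a was 28.7-fold higher in LrNK (log2 change 4.84 ± 0.56, edgeR adjusted p = 0.00259), Hspa1b 13.5-fold (3.76 ± 0.53, edgeR adjusted p = 0.00517) and Dnajb1 2.18-fold (1.13 ± 0.19, edgeR adjusted p = 0.00941). Values of the single Hspa1 copies are uncertain, and the summed pair gave a log2 change of 3.92 ± 0.52 (edgeR adjusted p = 0.00420). Hsp90aa1 was 14.2-fold lower (−3.82 ± 0.22, edgeR adjusted p = 0.000212). The other 6 did not pass: Hspe1 (0.45), Hspa8 (0.43), Dnaja1 (0.41), Hsf1 (0.19), Hsph1 (−0.13) and Hspd1 (−0.38) had edgeR adjusted p from 0.120 to 0.740. So 3 of the 10 were called higher and 1 lower, where 10.9% of all 16456 genes were called higher and 9.83% lower (20.7% in all). Samples lay wholly higher for 5 of the 10 (those 3, Hspa8 and Hspe1) and wholly lower for 1, where 17% of all genes lay wholly higher and 31.7% wholly lower.

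Among samples labelled CD8KO, 6 of the 10 genes were called higher in LrNK and 1 lower, where 15.4% of all 17795 genes were called higher and 11.6% lower (27% in all). The choice of genes, most of them low in cNK labelled CD8KO, favoured calls of higher here, so this count is no independent result. Hsph1, Dnaja1 and Hspa8 were called here and not in WT. Samples lay wholly higher for 7 of the 10 and wholly lower for 1, against 23.3% and 38.4% of all genes. Hspa1a was 138-fold higher (7.11 ± 0.73, edgeR adjusted p = 0.00230), against cNK samples with 58, 17 and 18 counts. Hspa1b was 37.8-fold higher (5.24 ± 0.72, edgeR adjusted p = 0.00590). The size of both depended on single samples. Without cNK labelled CD8KO sample 1, the highest of its group, the log2 changes were 8.06 for Hspa1a and 6.08 for Hspa1b, and without LrNK labelled CD8KO sample 1 they were 6.49 and 4.52, the limits over all alternatives run. Dnajb1 (1.18 ± 0.14), Hspa8 (1.12 ± 0.15) and Dnaja1 (1.03 ± 0.15) were also higher, at edgeR adjusted p from 0.00406 to 0.00652. Hsph1 (0.71 ± 0.18, edgeR adjusted p = 0.0397) lost its call under some alternatives, among them leaving out a cNK sample, with edgeR or voom adjusted p up to 0.182. Hsp90aa1 was 9.9-fold lower (−3.31 ± 0.13, edgeR adjusted p = 0.000186), and Hsf1 (0.40), Hspe1 (0.37) and Hspd1 (0.30) did not pass, at edgeR adjusted p from 0.0915 to 0.246. With only 2 LrNK samples against 3 tightly spaced cNK samples, calls in this comparison are less reliable than their adjusted p states. On simulated counts with the measured spread of each gene, the fit made false calls well above the nominal rate. Dnaja1 lost its call without cNK labelled CD8KO sample 3 (adjusted p = 0.0510, from 1.18e-08 to 0.0510 over the alternatives). The calls for Hspa1a, Hspa1b, Dnajb1, Hspa8 and Hsp90aa1 held under every alternative run that kept both LrNK samples.

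Immediate-early genes, which respond within minutes to stimulation and to tissue handling, moved with the cell type as well. Of 27 such genes, 18 were higher in LrNK WT than in cNK WT and 0 lower (median log2 change 2.79), where 10.9% of all genes were called higher. Between the groups labelled CD8KO 21 were higher and 0 lower (median 3.06), where 15.4% of all genes were called higher. Their summed level was 16400 to 44100 CPM in LrNK labelled CD8KO, 13400 to 49000 in LrNK WT, 4530 to 5020 in cNK labelled CD8KO and 4700 to 5200 in cNK WT. Between the cNK labels 6 were lower in cNK labelled CD8KO and 0 higher, where 0.812% of all genes were called lower, with a median of −0.14, and the sums overlapped. Genes of other cells moved with the cell type too. Hepatocyte genes were higher in LrNK for 12 of 12 tested among groups labelled CD8KO and 6 of 9 in WT, with sums of 37.1 to 265 CPM in LrNK and at most 2.24 in cNK, where Apoc3, Ttr, Serpina1a, Serpina1c, Fgb and Cyp3a11 had no counts. Erythroid genes were higher for 5 of 6 under the CD8KO label and 6 of 6 in WT, with sums of 154 to 3280 CPM in LrNK and at most 5.66 in cNK. T-cell genes were higher for 8 of 12 under the CD8KO label and 9 of 11 in WT, with sums of 862 to 1110 CPM in LrNK labelled CD8KO and 1460 to 1840 in LrNK WT, against 564 to 590 in cNK labelled CD8KO and 510 to 559 in cNK WT. Of neutrophil and monocyte genes 8 of 14 were higher and 1 lower under the CD8KO label, and 4 of 8 were higher and 2 lower in WT. Their sums were 3120 to 10200 CPM in LrNK labelled CD8KO and 884 to 4850 in LrNK WT, against 1340 to 1430 in cNK labelled CD8KO and 1260 to 1340 in cNK WT. The part of handling or of other cells in the chaperone values was not tested.

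Other genes of the chaperone network were tested in the same fits. Among 148 other genes on 11 lists, chosen with earlier results of these data known, 14 of 135 tested were lower in cNK labelled CD8KO than in cNK WT and 0 higher, with a median of −0.05 against −0.0016 over all genes, where 0.812% of all 16619 genes tested were called lower and 0.499% higher (1.31% in all). The largest falls were the HSP70 to HSP90 adaptor Stip1 (−0.74 ± 0.13, edgeR adjusted p = 0.00817), Cacybp (−0.68), the HSP90 activator gene Ahsa2 (−0.65), the HSP90 co-chaperone Chordc1 (−0.62) and the HSP110 gene Hspa4l (−0.62), at edgeR adjusted p from 0.00322 to 0.0126. Of 17 genes in the list of HSP90 and its co-chaperones, 5 fell. In LrNK by label 0 of 138 passed.

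Between LrNK WT and cNK WT, 28 of the 135 other network genes were higher and 6 lower (median 0.16, against −0.08 over all genes), where 10.9% of all genes were called higher and 9.83% lower. Between the groups labelled CD8KO 39 of 137 were higher and 7 lower (median 0.23, against −0.05), where the shares of all genes were 15.4% and 11.6%. Against the same shares, in the list of endoplasmic reticulum chaperones and the unfolded protein response 11 of 23 rose in WT and 13 of 23 under the CD8KO label. On the list named other heat-inducible genes 8 of 11 and 9 of 12 rose. Not every gene on that list is heat-inducible: the calls included Gpx1 under both labels and Rbm3 under the CD8KO label. Among the 5 largest rises of network genes under both labels were the stress-response factor Atf3 (8.05 ± 0.83 in WT and 10.1 ± 0.47 under the CD8KO label), Gadd45b (5.03 and 5.60) and the metallothionein Mt1 (4.21 and 5.51). All had edgeR adjusted p from 0.000281 to 0.00707. Atf3 and Gadd45b are also on the list of immediate-early genes and were counted there too. Gadd45b varied widely within LrNK, at 230 and 1160 CPM in LrNK labelled CD8KO and 180, 1230 and 431 in LrNK WT, against 15 to 16.8 in cNK labelled CD8KO and 19.4 to 21.5 in cNK WT. In WT came Ier5l (4.15) and the antioxidant enzyme gene Gpx1 (2.39). Under the CD8KO label came the small heat-shock protein gene Hspb8 (5.45) and the collagen chaperone gene Serpinh1. Both rested on low counts, mostly of LrNK labelled CD8KO sample 1. Serpinh1 had 136 and 28 counts in the LrNK samples (3.79 and 0.313 CPM) and 0 in all 3 cNK samples, so that it was at least 72.2-fold higher over both LrNK samples, and at least 17.3-fold without sample 1, against a floor of 3 counts over the cNK group. Hspb8 had 132 and 43 counts in the LrNK samples (3.68 and 0.481 CPM) and 2, 4 and 2 in cNK. Falls included the HSP90 co-chaperone genes Cdc37l1 (−1.28 in WT and −1.20 under the CD8KO label) and Ppid (−0.63 in WT), and the J-domain gene Dnajc9 (−0.56 and −0.96). The other large falls were Dnajc13 (−0.99) and Dnajc10 (−0.70) in WT, and Hscb (−0.75), Grpel2 (−0.66) and Dnajc2 (−0.65) under the CD8KO label.

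**Figure D4:**
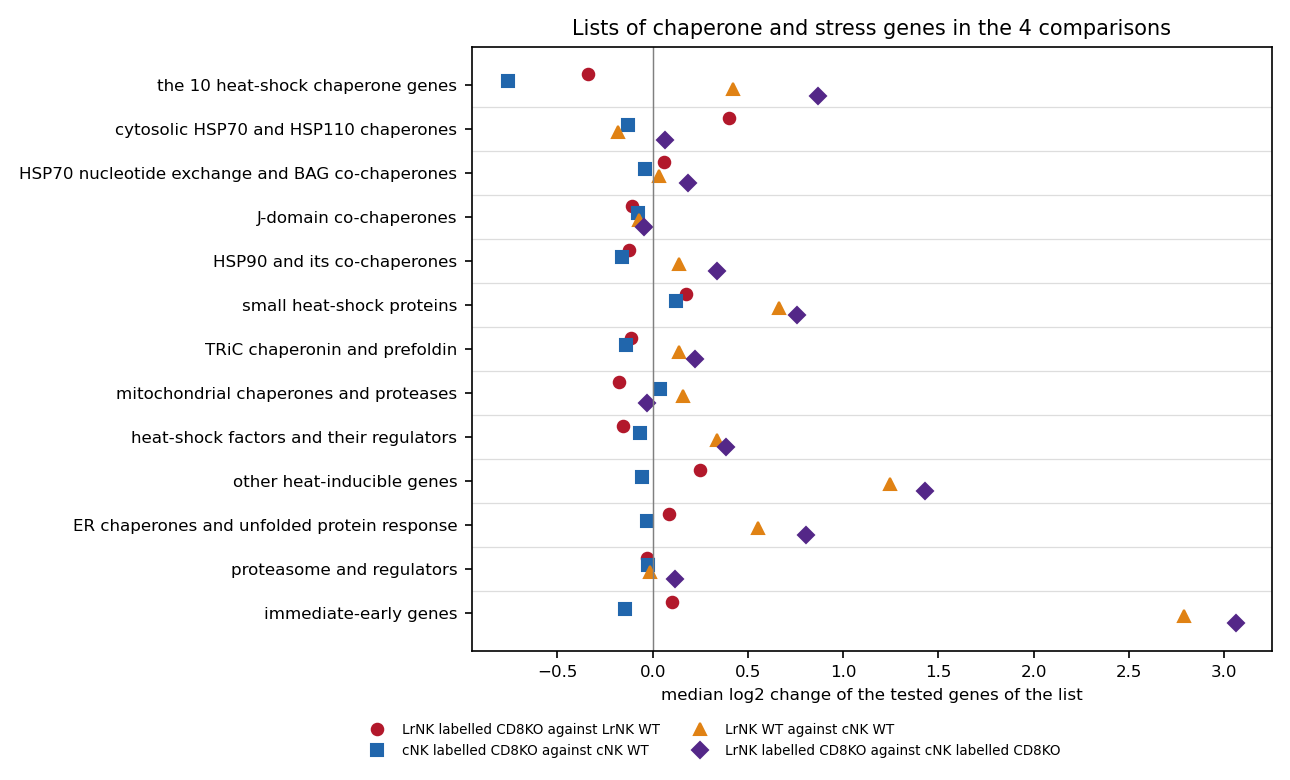
Median log2 change of the tested genes of each list in the 4 comparisons, with the 10 chaperone genes in the top row and immediate-early genes in the bottom row. The 10 genes have the lowest median in cNK by label (−0.76), a contrast that chose them, and immediate-early genes have the highest medians between cell types (2.79 and 3.06).

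Likeness to the Hspa1 pair was described by Pearson's r with the mean log2 level of Hspa1a and Hspa1b among 9367 genes, as a description without a test. Over all 11 samples the 6 genes most alike outside the 10 were Hsp90ab1 (0.96), the constitutive cytosolic HSP90, then Npm1 (0.94), Cd63 (0.93), Cdk2 (0.92), Cyth4 (0.92) and Xkr6 (0.92). Of the 10, Dnajb1 (0.97) and Hspa8 (0.96) were as much alike, and Hsp90aa1 was opposed (−0.74). Samples of a group share cell type and label, and r takes no account of the size of a change. Over the 11 samples Npm1 ranged from 264 to 345 CPM and Cyth4 from 572 to 678, while Cd63 ranged from 0.559 to 47.9. Over the 6 cNK samples the genes most alike included Zbtb10 (0.998), Cse1l (0.993), the J-domain gene Dnaja4 (0.992), Cop1 (0.991) and Rpp30 (0.987). Most of these varied little there, at 28.9 to 37.1 CPM for Zbtb10, 70 to 77.8 for Cse1l, 51 to 54.4 for Cop1 and 11.1 to 13.5 for Rpp30. Dnaja4 was at 23.6 to 41.3 CPM. The 6 samples are those of the contrast that chose the 10 genes, so likeness among the 10 there largely restates the choice. Among the 10, r was 0.986 for Hsph1, 0.982 for Hspd1, 0.975 for Hsp90aa1 and 0.33 for Hsf1.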

How the data were processed

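Gene counts of 13 libraries, 1 file each, were used as deposited by the authors, as raw counts without normalization. HISAT2 2.1.0 and GRCm38 are named in the submitters' processing notes. Which tool counted reads, on which annotation and with what strand setting, is not given in the sources used here. GENCODE M21 gave symbols and coordinates to 54495 of 54532 identifiers. Close library pairs were summed by their chi-square per degree of freedom (limit 4), which left 11 samples. CPM are counts per 1000000 of a sample's total, with ± as SD between samples and as standard error for log2 changes. That standard error is the size of the log2 change divided by the square root of the F statistic of edgeR's quasi-likelihood test.

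Each comparison was fitted alone with edgeR 4.0.16 (R 4.3.3), TMM scaling, filterByExpr (minimum count 10, total 15), the quasi-likelihood test and Benjamini-Hochberg adjustment over all genes tested. A gene was called under 0.05. Alternatives were RLE factors, no filter, all 4 groups together, DESeq2 1.42.0, limma 3.58.1 voom, a replicate block, separate libraries, each replicate left out, and the Hspa1 pair summed. Subsets by detected genes and by Xist were added after seeing the data.

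The fit was tried on simulated counts. With 1 common spread per cell type it recovered changes between cNK groups but next to none where LrNK samples entered. A spread per gene was then used as well, after that outcome was known. It still recovered few changes in LrNK by label, and in LrNK against cNK labelled CD8KO false calls exceeded the nominal rate.

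The 10 genes, the lists and the 2-group fit were chosen with earlier results of these data known. All 10 genes passed the filter in every comparison. Named network genes were the 5 largest called rises and falls per comparison, and genes most like the Hspa1 pair were the 6 of highest r, of which 1 is not reported here.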

Additional observations from a re-analysis of the deposited data

How the results depend on the processing

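In the 3 comparisons with a test of the 10 genes, neither RLE factors nor leaving out any replicate changed a call of Hspa1a, Hspa1b or Hsp90aa1. Genes called in LrNK by label were 0, but 259 without a filter (10-gene set 2, network 1), 148 with all 4 groups, 59 with DESeq2 (set 1), 22 with separate libraries and 88 among samples with few detected genes (set 1). The 10 genes were picked on cNK by label, so their counts there only restate the choice. Genes called in cNK by label were 218 (set 8), but 590 without a filter (network 28), 1 with all 4 groups (set 0, network 0), 514 with DESeq2, 332 with voom and 40 with cNK samples of Xist under 1 CPM (set 1, network 1). LrNK WT against cNK WT gave 3414 genes, but 6856 with few-gene samples (network 53) and 11526 with many-gene samples (set 8, network 97). Under the CD8KO label 4804 became 13004 (network 96) and 10872 (network 95).

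Same-numbered samples correlated in their deviations from the group means at 0.297 and 0.49 in LrNK by label, at 0.0145 to 0.0471 in cNK by label and at −0.0987 to 0.0538 between cell types. LrNK by label has only 2 such pairs and nothing in the labels says what the numbers share, so pairing was not taken as shown. With the replicate number as a block, calls were 180 in LrNK by label (set 1, Hspa1b at an edgeR adjusted p of 0.0253, and network 1), 355 in cNK by label, 1801 in LrNK WT against cNK WT (network 22) and 2162 under the CD8KO label (network 23).

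Leaving out a replicate gave 0 to 0 genes in LrNK by label (set 0 to 0, network 0 to 0), 71 to 254 in cNK by label (set 5 to 9, network 1 to 21), 1021 to 6856 for WT (set 4 to 5, network 7 to 53) and 1688 to 13004 under the CD8KO label (set 5 to 9, network 16 to 96). The lowest cNK count, 71, came without cNK labelled CD8KO sample 2, and 90 without cNK WT sample 1.

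Estimates near 0 changed sign. Hspa8 in LrNK by label turned positive under RLE (0.012), DESeq2 (0.012), voom (0.029), the block (0.043) and with few-gene samples (0.13), and ran from −0.11 to 0.10 as replicates were left out, positive without LrNK WT replicate 3 or LrNK CD8KO replicate 2. Hspd1 there ran from −0.053 (without LrNK CD8KO replicate 1) to 0.41, and Hsf1 from −0.30 (without LrNK CD8KO replicate 2) to 0.43, with −0.094 for few-gene samples. Hsf1 between cell types labelled CD8KO ran from −0.017 (without LrNK replicate 2, which leaves the few-gene sample) to 0.69. The cause was not tested. With 1 sample left in a group, that sample is assumed to vary like the other group. The lowest counts of the Hspa1 pair in a cNK library were 17 for Hspa1a and 162 for Hspa1b.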

Other observations

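Hsp90aa1 and its constitutive paralog Hsp90ab1, which encode the 2 cytosolic HSP90 proteins, stood opposite each other between the cell types, a pair singled out after its values were seen. Hsp90aa1 was at 21.2 to 25.1 CPM in LrNK libraries labelled CD8KO and 25.5 to 34.6 in LrNK WT, against 236 to 276 in cNK labelled CD8KO and 349 to 512 in cNK WT. Hsp90ab1 was at 2230 to 2270 CPM in LrNK libraries labelled CD8KO and 2170 to 2560 in LrNK WT, against 1180 to 1400 in cNK labelled CD8KO and 1410 to 2000 in cNK WT. In the edgeR fits Hsp90ab1 was called higher in LrNK under the CD8KO label and was not called in WT. The ribosomal protein gene Rpl12, also picked after its values were seen, had 60 to 107 CPM in LrNK libraries labelled CD8KO and 79.2 to 149 in LrNK WT, against 710 to 829 in cNK labelled CD8KO and 732 to 783 in cNK WT. The low values of Hsp90aa1 and Rpl12 held in all 7 LrNK libraries, whether few or many genes were detected.

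Even numbers made up 49.5% to 65.2% of the counts from 1 to 20 in a library, with the 3 libraries of few detected genes at 49.5% to 55.8% and the others at 60.6% to 65.2%. Nothing was done about this, and how reads were counted is not known.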
